A study of Mus musculus with 10 samples.

Results

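Proteasome subunit genes were followed along the abdominal aorta of ApoE-/- males, a mouse model of atherosclerosis in which the gene for apolipoprotein E is knocked out. The members are all genes whose single annotated symbol starts with Psma, Psmb, Psmc, Psmd, Psme, Psmf or Psmg followed by a number. The annotation held 48 such genes, and 47 of the 17991 genes tested were members, covered by 53 probes. Psmf1, which encodes a proteasome inhibitor, had a probe with no value on any array, and the probe annotated to Psmb10 also carried a second symbol and was not used. Where a gene had several probes, the brightest by mean log2 value was used. The mice were 14 weeks old, and the aortas of 2 mice made a pool. Each of 5 pools, numbered 1, 6, 8, 11 and 12, gave an infrarenal segment, taken below the kidney arteries, and a suprarenal segment, taken above them, with 1 array each. All 10 arrays come from knockout animals, so the comparison is between regions and not between genotypes. A segment is a mixture of cell types, so fewer cells of a type and less RNA per cell cannot be told apart.

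The proteasome is the protease that degrades proteins tagged with ubiquitin in the cytosol and nucleus. Its core is a barrel of alpha rings, which gate entry, around beta rings, which hold the catalytic sites. A regulatory particle on the end of the barrel, made of an ATPase base and a lid, binds, unfolds and de-ubiquitinates substrates. Under interferon the inducible catalytic subunits, encoded by Psmb8, Psmb9 and Psmb10, replace the constitutive ones encoded by Psmb5, Psmb6 and Psmb7, and the resulting immunoproteasome makes peptides suited to MHC class I. In the vessel wall, smooth muscle cells, leukocytes and perivascular fat all use the proteasome.

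The promoter windows of 5 members are shown because the results below turn on them: the inducible Psmb8 and Psmb9, their constitutive partners Psmb5 and Psmb6, and Psmc6, the member of smallest p. Each window is from RefSeq's table for GRCm38.p6 and runs from 250 bases before to 50 bases after the annotated gene start, on the gene's strand. Capitals mark the letters of a motif that was searched on both strands.
Psmb8, chr17:34197945-34198244, plus strand: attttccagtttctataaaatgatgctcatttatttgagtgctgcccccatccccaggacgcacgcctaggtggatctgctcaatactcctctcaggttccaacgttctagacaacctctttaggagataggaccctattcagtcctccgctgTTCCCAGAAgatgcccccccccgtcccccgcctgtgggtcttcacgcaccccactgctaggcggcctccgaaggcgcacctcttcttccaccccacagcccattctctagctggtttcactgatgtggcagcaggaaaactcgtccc
Psmb9, chr17:34187281-34187580, minus strand: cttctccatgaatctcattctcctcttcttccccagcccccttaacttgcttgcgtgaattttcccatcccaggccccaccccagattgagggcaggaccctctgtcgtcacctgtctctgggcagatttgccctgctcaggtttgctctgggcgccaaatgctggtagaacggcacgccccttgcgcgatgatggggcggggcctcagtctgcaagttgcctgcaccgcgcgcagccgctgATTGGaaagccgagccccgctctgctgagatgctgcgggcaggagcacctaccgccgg
Psmb5, chr14:54617946-54618245, minus strand: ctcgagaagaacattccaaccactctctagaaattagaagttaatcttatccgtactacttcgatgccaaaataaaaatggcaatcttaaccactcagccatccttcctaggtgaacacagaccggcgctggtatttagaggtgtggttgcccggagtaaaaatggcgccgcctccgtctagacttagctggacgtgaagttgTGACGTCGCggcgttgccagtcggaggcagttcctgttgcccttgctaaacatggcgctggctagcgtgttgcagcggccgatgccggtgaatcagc
Psmb6, chr11:70525107-70525406, plus strand: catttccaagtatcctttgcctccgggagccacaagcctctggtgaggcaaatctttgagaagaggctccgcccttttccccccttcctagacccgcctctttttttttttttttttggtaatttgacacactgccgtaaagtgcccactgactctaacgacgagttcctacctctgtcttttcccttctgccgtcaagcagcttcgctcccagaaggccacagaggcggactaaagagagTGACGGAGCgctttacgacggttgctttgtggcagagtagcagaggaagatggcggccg
Psmc6, chr14:45329574-45329873, plus strand: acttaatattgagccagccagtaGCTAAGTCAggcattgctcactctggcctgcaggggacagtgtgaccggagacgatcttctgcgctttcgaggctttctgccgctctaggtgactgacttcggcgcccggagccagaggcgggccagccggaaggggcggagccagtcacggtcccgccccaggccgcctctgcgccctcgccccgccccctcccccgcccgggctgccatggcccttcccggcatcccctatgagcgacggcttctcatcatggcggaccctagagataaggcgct

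The motifs were the antioxidant response element core TGACNNNGC, known as a binding sequence of the factors encoded by Nfe2l1 and Nfe2l2, the interferon-stimulated response element core GAAANNGAAA, the gamma-activated site TTCNNNGAA of interferon signalling, and the CCAAT box. No overlap between motifs occurred in the windows shown. In Psmb8 the capitals are a gamma-activated site letter match at positions -97 to -89 from the start, and in Psmb9 a CCAAT box on the other strand at -8 to -4. Psmb5 and Psmb6 held antioxidant response element letters at -47 to -39 and at -9 to -1, and Psmc6 held them on the other strand at -227 to -219. Windows were found for 39 members (43 windows). The antioxidant response element letters were in 11.6% of member windows, against 12.4% of all 32851 windows in the table. The interferon-stimulated response element letters were in 11.6% of member windows, those of Psmb3, Psmd4, Psmd9, Psme1 and Psmg4, against 3.44% of all windows. The gamma-activated site letters were in 6.98% of member windows, against 8.30% of all. The CCAAT box was in 37.2% of member windows, against 37.4% of all. These are matches of letters in a window and say nothing on whether a factor is bound.

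Values are log2 intensities on the authors' scale, on which each array has a median intensity of about 1, and values of a region are listed in the order of pools 1, 6, 8, 11 and 12. Bright probes were dimmer on infrarenal arrays as a whole: percentile 90 of the log2 values lay between 4.13 and 4.28 on infrarenal arrays, against 4.29 to 4.37 on suprarenal arrays. By pool, infrarenal minus suprarenal, this percentile differed by -0.0091 in pool 1, -0.20 in pool 6 and -0.10 to -0.12 in pools 8, 11 and 12. Among the brightest probes the regions overlapped. The level that the brightest 1% exceeded was 6.34 to 6.64 on infrarenal arrays, against 6.51 to 6.71 on suprarenal arrays. By pool it differed by 0.0083, -0.34, -0.22, -0.13 and -0.067 in pools 1, 6, 8, 11 and 12. The mean of the 14 genes Psma1 to Psma7 and Psmb1 to Psmb7 differed by 0.025, -0.37, -0.17, -0.20 and -0.063 there. Whether these genes differed from other probes as bright was not tested. Most proteasome probes are bright, so the main counts and medians below are also given under other scalings. Pool 12 went against the others in position markers: the 13 Hox genes of paralogue groups 9 to 13, which mark posterior body regions, had a mean infrarenal minus suprarenal difference of -0.88 in pool 12, against 0.17, 0.38, 0.55 and 0.88 in pools 1, 6, 8 and 11. Whether the labels of the 2 arrays of pool 12 were exchanged was not tested. An exchange would turn the sign of every pool 12 difference, so the main values are also given without that pool. Smooth muscle markers were high on every array, with a mean log2 level of 6.76 to 6.93 on infrarenal arrays and 6.64 to 6.94 on suprarenal arrays.

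The question was whether proteasome gene levels differ between the infrarenal segment and the suprarenal segment of one pool of mice. Genes of every constitutive part of the proteasome had small negative differences, infrarenal minus suprarenal, while the immunoproteasome genes Psmb8 and Psmb9 had positive ones. The difference was negative for 44 of 47 members, and the 3 positive ones were Psmb8, Psmb9 and the testis form Psma8. The median over members was -0.17 log2 units, an intensity 10.9% lower in infrarenal aorta, against -0.049 over all 17991 genes, of which 60.4% were negative. No member passed the test (limma with the pool as a block, Benjamini-Hochberg over all probes, adjusted p between 0.639 and 0.984). With each array scaled by quantile normalization the members' median was -0.037, with 32 of 47 negative. The median of all genes was then 0.0015, with 49.65% negative.

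Over all genes, 0.0% passed the adjusted threshold. At an unadjusted p under 0.05 there were 11 members with negative differences, against 5.89% of all genes, and 0 with positive ones, against 2.17%. After quantile normalization these counts were 2 and 1, against 2.85% and 2.83% of all genes. The 11 were Psmb1, Psmb4, Psmc4, Psmc6, Psmd1, Psmd4, Psmd6, Psmd9, Psmd14, Psme3 and Psme3ip1. The count moved with single pools, as did the share of all genes that reached the same p: it was 1 without pool 6 (2.62% of all genes), 3 without pool 8 (2.63%), 4 without pool 11 (4.47%), 7 without pool 12 (8.97%) and 15 without pool 1 (7.82%). Infrarenal values lay below suprarenal ones in 5 of 5 pools for 8 members, against 6.23% of all genes. Every infrarenal array lay below every suprarenal array for 2 members, Psmb4 and Psmc4, against 0.884% of all genes.

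**Figure D1:**
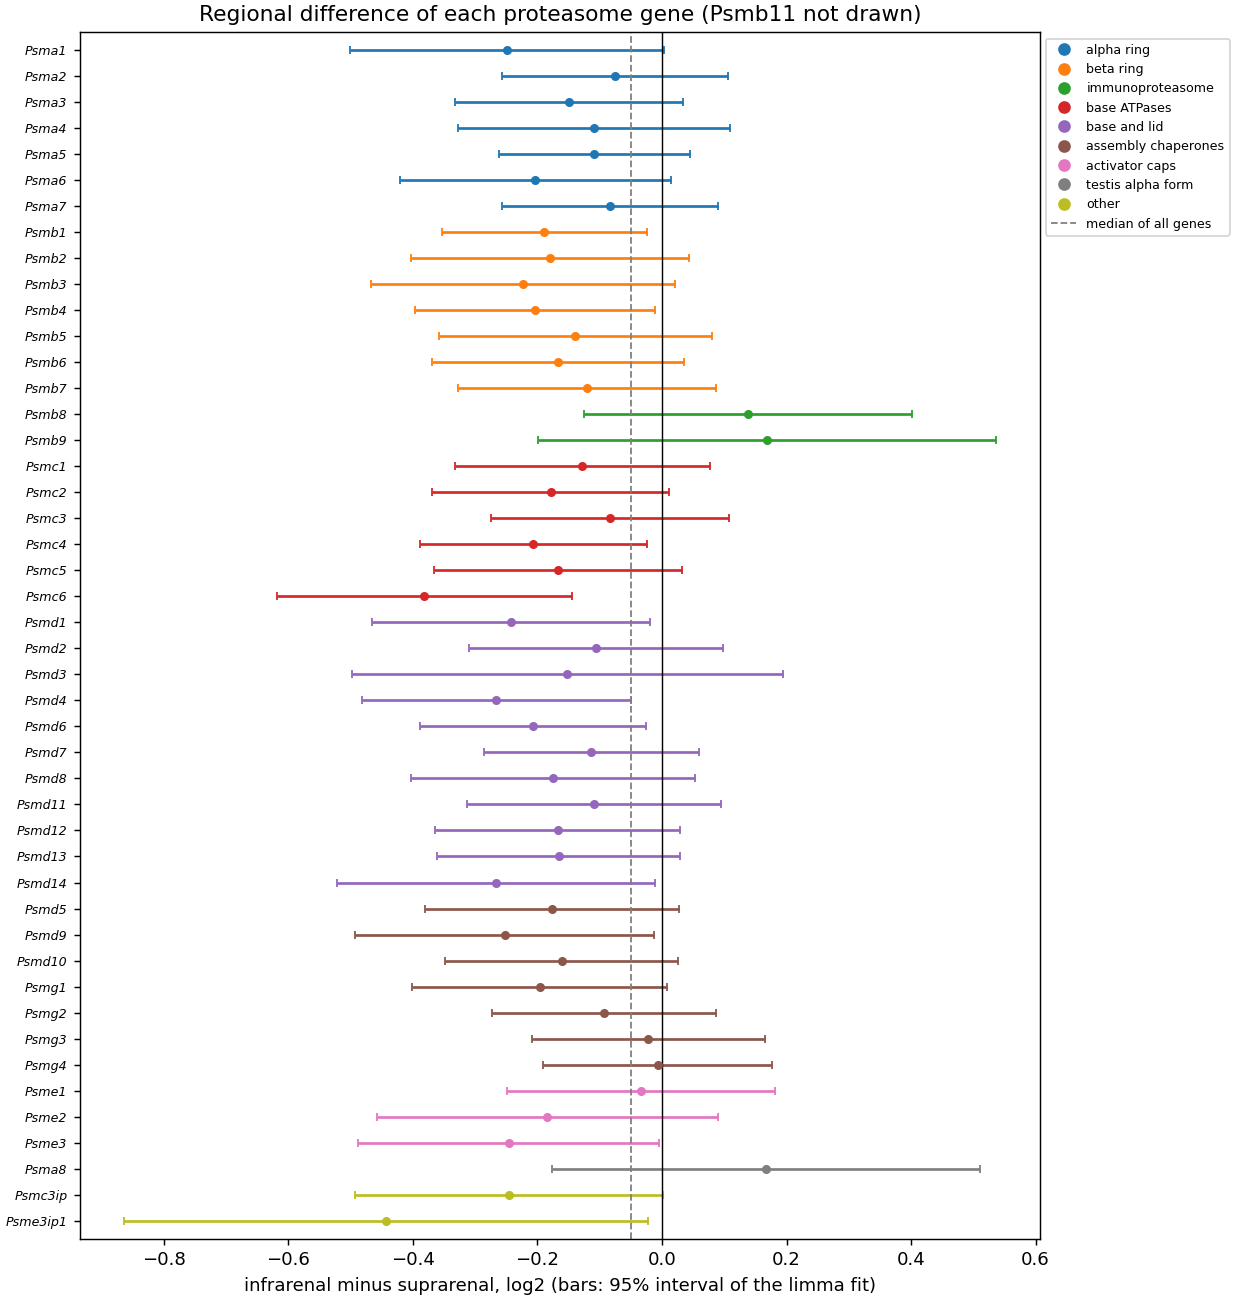
Infrarenal minus suprarenal log2 difference of each proteasome gene, with the 95% interval of the limma fit, coloured by role, on the deposited scaling. The points lie left of 0 except for Psmb8, Psmb9 and Psma8, and after quantile normalization the median of members moved to -0.037. The dashed line is the median of all genes at -0.049, and Psmb11, whose interval runs from -1.53 to 1.42, is not drawn.

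The difference varied between pools. The median over members was -0.33 in pool 6, -0.16 in pool 8, -0.15 in pool 11, -0.12 in pool 12 and 0.033 in pool 1. In pool 6 the difference was negative for 45 of 47 members, against 9457 of all 17991 genes. In pool 1 it was negative for 18 members, against 8243 of all genes. Over all genes the pool medians ran from -0.10 in pool 8 to 0.026 in pool 1. Without pool 6 the median over members was -0.11 and without pool 1 it was -0.21, and the all-gene medians were then -0.053 and -0.063. Without pool 12 the median over members was -0.17, with 44 of 47 negative, against 57.5% of all genes.

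**Figure D2:**
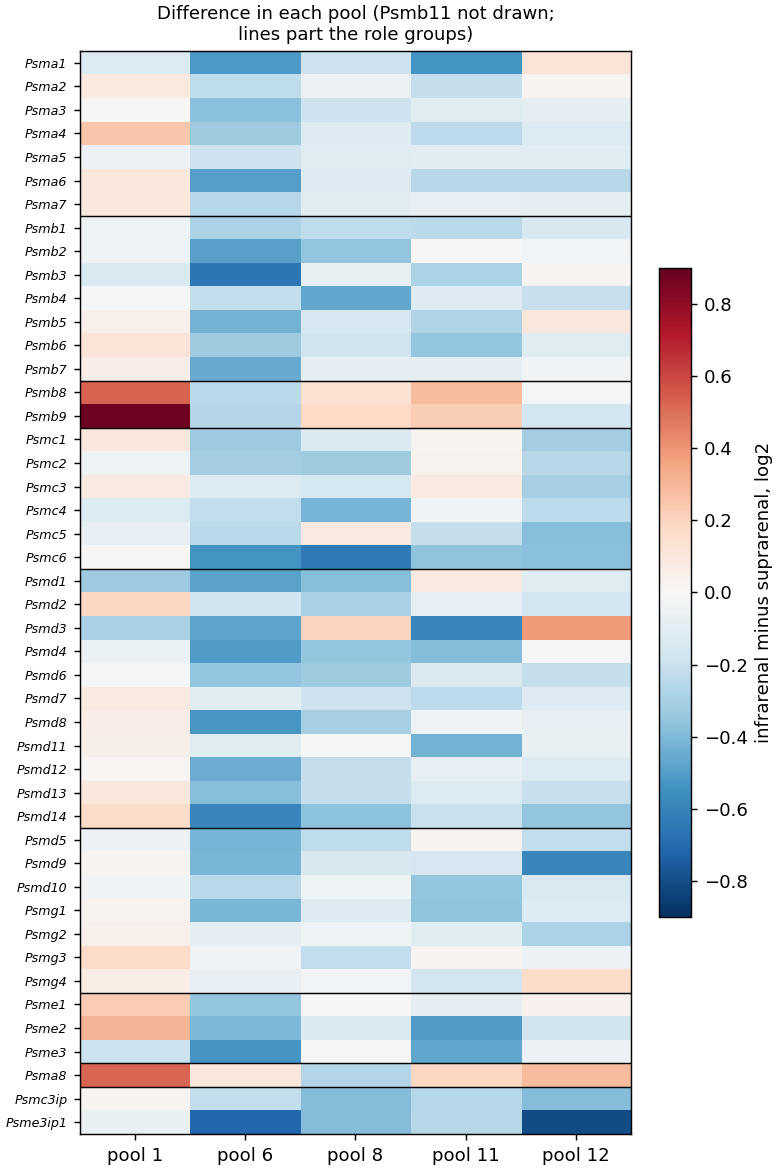
Infrarenal minus suprarenal log2 difference of each proteasome gene (down) in each pool (across), grouped by role, with blue for lower and red for higher in infrarenal aorta. The pool 6 column is mostly blue, with 45 of 47 members negative, and pool 1 is mixed, with 18 negative. Of all 17991 genes, 9457 were negative in pool 6 and 8243 in pool 1. Psmb8 and Psmb9 share the sign of their difference in each pool, positive in pools 1, 8 and 11 and negative in pools 6 and 12, and Psmb11 is not drawn.

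The alpha ring genes Psma1 to Psma7 encode the outer rings of the core, whose ends close or open the entry channel. All 7 had negative differences, from -0.25 to -0.075, with a list median of -0.11, and 0 had an unadjusted p under 0.05, against the 60.4% of all genes that were negative and the 5.89% that were negative at that p. Psma1 had the smallest p among them. Its log2 intensities were 4.99, 4.57, 4.92, 4.68 and 4.85 in infrarenal aorta, against 5.12, 5.09, 5.11, 5.22 and 4.73 in suprarenal aorta. The suprarenal array of pool 12 was the lowest suprarenal one, below the infrarenal array of its own pool, and the groups overlapped. Its difference was -0.25 ± 0.11 (SE), with an adjusted p of 0.639.

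The constitutive beta ring genes Psmb1 to Psmb7 encode the inner rings, with the catalytic sites in the products of Psmb5, Psmb6 and Psmb7. All 7 had negative differences, against 60.4% of all genes. Their median was -0.18, with a range from -0.22 for Psmb3 to -0.12 for Psmb7. Over the 14 alpha and beta genes of the constitutive core, the mean level was 6.25, 5.78, 6.05, 6.01 and 5.92 in infrarenal aorta of pools 1, 6, 8, 11 and 12, against 6.23, 6.16, 6.22, 6.21 and 5.98 in suprarenal aorta. Pool 6 had the lowest infrarenal level and pool 12 the lowest suprarenal one. All 14 differences were negative on the deposited scaling and without each pool in turn. The count was 9 of 14 after quantile normalization, 13 with arrays scaled to percentile 75 and 8 with percentile 95. Of all genes, 60.4% were negative on the deposited scaling and 57.5% to 63.3% without single pools. The share was 49.65% after quantile normalization, 43.28% at percentile 75 and 30.45% at percentile 95.

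Psmb1 and Psmb4 encode non-catalytic beta subunits. Psmb4 had log2 intensities of 6.72, 6.55, 6.55, 6.67 and 6.52 in infrarenal aorta, against 6.74, 6.77, 7.01, 6.79 and 6.72 in suprarenal aorta. No infrarenal value reached the suprarenal ones, although the highest infrarenal and the lowest suprarenal value round to the same figure. Its difference was -0.20 ± 0.084 (SE), negative in 5 of 5 pools, and a second, dimmer Psmb4 probe differed by -0.32 ± 0.089 (SE), with an adjusted p of 0.639 for both. Psmb1 read 6.91, 6.48, 6.68, 6.68 and 6.53 in infrarenal aorta, against 6.96, 6.77, 6.91, 6.92 and 6.68 in suprarenal aorta. It was lower in infrarenal aorta within each of 5 pools, but the groups overlapped, with a difference of -0.19 ± 0.071 (SE) and an adjusted p of 0.639.

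Among the constitutive catalytic genes, Psmb5 encodes the chymotrypsin-like subunit and had log2 intensities of 6.19, 5.78, 6.11, 5.98 and 5.98 in infrarenal aorta, against 6.14, 6.21, 6.26, 6.26 and 5.87 in suprarenal aorta. The infrarenal array was the lower of its pair in 3 of 5 pools, by most in pool 6. The difference was -0.14 ± 0.095 (SE) (adjusted p = 0.683), and it was 0.0011 with arrays scaled to percentile 95. Psmb6, which encodes the caspase-like subunit, read 6.51, 6.01, 6.31, 6.23 and 6.12 in infrarenal aorta, against 6.40, 6.33, 6.49, 6.58 and 6.23 in suprarenal aorta. The infrarenal array was lower in all pools but pool 1, and the difference was -0.17 ± 0.087 (SE) (adjusted p = 0.649). Psmb7, for the trypsin-like subunit, read 6.11, 5.56, 5.81, 5.79 and 5.55 in infrarenal aorta, against 6.05, 6.01, 5.89, 5.88 and 5.59 in suprarenal aorta. Both arrays of pool 12 and the infrarenal array of pool 6 were low, and the difference was -0.12 ± 0.090 (SE) (adjusted p = 0.705), which was 0.0031 after quantile normalization and 0.020 with arrays scaled to percentile 95.

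The immunoproteasome genes went the other way without passing the test. Psmb8, which encodes the inducible partner of the Psmb5 product, had log2 intensities of 5.15, 4.37, 5.02, 4.77 and 4.56 in infrarenal aorta, against 4.62, 4.62, 4.89, 4.49 and 4.57 in suprarenal aorta. Infrarenal aorta was higher in pools 1, 8 and 11 and lower in pools 6 and 12, and the groups overlapped. The difference was 0.14 ± 0.11 (SE), with a 95% interval from -0.13 to 0.40 and an adjusted p of 0.73. Psmb9, for the inducible partner of the Psmb6 product, read 3.47, 2.30, 2.97, 2.81 and 2.44 in infrarenal aorta, against 2.59, 2.56, 2.79, 2.58 and 2.61 in suprarenal aorta. The infrarenal arrays spread from 2.30 to 3.47, and the suprarenal arrays only from 2.56 to 2.79. The difference was 0.17 ± 0.16 (SE) (95% interval -0.20 to 0.54, adjusted p = 0.755), and Psmb9 had the highest difference of the 47 members. Pool 1 had the highest value of the 5 for both genes, and without pool 1 the differences were 0.039 for Psmb8 and -0.0084 for Psmb9.

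The mean of Psmb8 and Psmb9 differed by 0.71 in pool 1, -0.25 in pool 6, 0.16 in pool 8, 0.25 in pool 11 and -0.094 in pool 12 (0.15 ± 0.37, SD, n = 5 pools). It was 0.25 after quantile normalization, 0.23 and 0.29 with arrays scaled to percentiles 75 and 95, and 0.22 without pool 12. Since 1 scale factor per array shifts both genes of a pair alike, the inducible gene's regional difference was set against that of its constitutive partner within each pool. For Psmb8 minus Psmb5 this gave 0.49, 0.18, 0.28, 0.56 and -0.12 in pools 1, 6, 8, 11 and 12, a mean of 0.28 ± 0.27 (SD, n = 5) and an exact two-sided sign-flip permutation p of 0.125. For Psmb9 minus Psmb6 it gave 0.76, 0.054, 0.36, 0.57 and -0.063, a mean of 0.34 ± 0.34 (SD, n = 5) and an exact permutation p of 0.1875. Each pair was positive in 4 of 5 pools, with pool 12, where the Hox genes ran the other way, negative. After quantile normalization the mean was 0.275 for Psmb8 minus Psmb5 (exact permutation p of 0.125). For Psmb9 minus Psmb6 it was then 0.26 (exact permutation p of 0.25). On the deposited scaling without pool 12, the only negative pool of each pair, the means were 0.38 and 0.44. The exact permutation p was 0.125 for both, the smallest that 4 pools allow, which all-positive values give by themselves. Leaving out each other pool gave Psmb8 minus Psmb5 means of 0.21 to 0.30, with an exact permutation p of 0.25. For Psmb9 minus Psmb6 the means were then 0.23 to 0.41, with an exact permutation p of 0.25 to 0.375. These 2 pairs were the comparisons made, the Benjamini-Hochberg adjusted p was 0.1875 for both, and the smallest p that 5 pools allow is 0.0625. Neither pair therefore passed, and this design could not have brought one under 0.05.

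**Figure D3:**
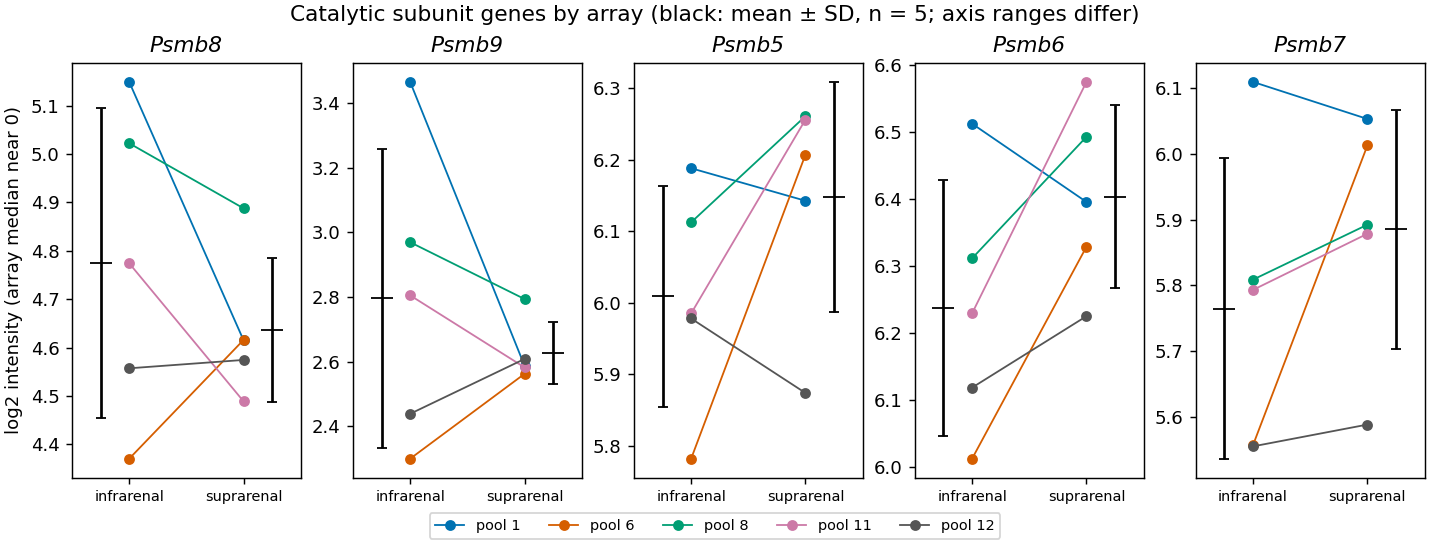
Log2 intensity of the inducible genes Psmb8 and Psmb9 and the constitutive genes Psmb5, Psmb6 and Psmb7 on every array, with a line joining the infrarenal and suprarenal array of a pool and black marks for the mean ± SD (n = 5). The groups overlap for all 5 genes, and the infrarenal array of pool 1 is the highest infrarenal one in each panel. The difference of Psmb7 had the opposite sign after quantile normalization, and those of Psmb5 and Psmb7 with arrays scaled to percentile 95.

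Psmb9, Tap1, Psmb8 and Tap2 follow each other in that order on chromosome 17, in the MHC region. Tap1 and Tap2 encode the transporter that carries peptides to MHC class I. Their differences were 0.10 ± 0.20 (SE) and -0.041 ± 0.15 (SE), with adjusted p of 0.890 and 0.945. Tap1 read 1.42, 0.95, 0.62, 0.94 and 0.63 in infrarenal aorta, against 0.35, 1.28, 0.85, 0.78 and 0.81 in suprarenal aorta. It was higher in infrarenal aorta in pools 1 and 11 and lower in pools 6, 8 and 12. Tap2 read 3.31, 2.75, 2.95, 3.08 and 3.14 in infrarenal aorta, against 2.73, 3.28, 3.17, 3.13 and 3.13 in suprarenal aorta, higher in infrarenal aorta in pools 1 and 12 and lower in the other 3. Irf1, which encodes an interferon-induced transcription factor, read 4.04, 3.54, 3.79, 3.82 and 3.56 in infrarenal aorta, against 3.52, 3.68, 3.53, 3.58 and 3.52 in suprarenal aorta. The infrarenal array of pool 1 was the highest, and the difference was 0.18 ± 0.10 (SE) (adjusted p = 0.656).

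In the ATPase base, Psmc1 to Psmc6 encode the ring of motor subunits that unfolds substrates. All 6 had negative differences, against 60.4% of all genes, with a median of -0.17. Psmc6 had the smallest unadjusted p of all members, 0.0059. Its log2 intensities were 4.23, 3.62, 3.85, 3.68 and 3.65 in infrarenal aorta, against 4.22, 4.16, 4.49, 4.05 and 4.02 in suprarenal aorta. All infrarenal arrays other than that of pool 1 lay below every suprarenal array. The difference was -0.38 ± 0.10 (SE), an intensity 23.3% lower in infrarenal aorta, negative in 4 of 5 pools and 0.0088 in pool 1, with an adjusted p of 0.639. Psmc4 read 5.68, 5.60, 5.66, 5.69 and 5.50 in infrarenal aorta, against 5.80, 5.83, 6.08, 5.72 and 5.73 in suprarenal aorta. The highest infrarenal value, 5.69 in pool 11, lay just below the lowest suprarenal one, 5.72 in the same pool. The difference was -0.21 ± 0.079 (SE) (adjusted p = 0.639), while a much dimmer second probe differed by -0.099 ± 0.19 (SE).

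The other base subunits and the lid are encoded by the Psmd genes Psmd1 to Psmd4, Psmd6 to Psmd8 and Psmd11 to Psmd14. All 11 had negative differences, from -0.27 for Psmd14 to -0.11 for Psmd2, and 4 had an unadjusted p under 0.05, against 60.4% negative and 5.89% with a negative difference at that p over all genes. Psmd4, a ubiquitin receptor, read 5.98, 5.35, 5.62, 5.63 and 5.60 in infrarenal aorta, against 6.04, 5.86, 5.97, 6.02 and 5.62 in suprarenal aorta. Each of the 5 pools had the lower value in its infrarenal segment, with a difference of -0.018 in pool 12 and a mean of -0.27 ± 0.094 (SE). Psmd14, the lid's de-ubiquitinating enzyme, read 5.01, 4.39, 4.59, 4.47 and 4.17 in infrarenal aorta, against 4.83, 4.98, 4.96, 4.67 and 4.53 in suprarenal aorta. Infrarenal aorta was higher in pool 1 and lower in the other pools, with a difference of -0.27 ± 0.11 (SE).

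Psmd1, a large scaffold subunit of the base, read 6.36, 6.33, 6.45, 6.59 and 6.44 in infrarenal aorta, against 6.68, 6.81, 6.83, 6.51 and 6.55 in suprarenal aorta. Only pool 11 had the higher value in infrarenal aorta, and the difference was -0.24 ± 0.097 (SE). Psmd6, a lid subunit, read 5.72, 5.38, 5.45, 5.58 and 5.40 in infrarenal aorta, against 5.73, 5.74, 5.77, 5.71 and 5.62 in suprarenal aorta. It was negative in 5 of 5 pools, with a difference of -0.21 ± 0.079 (SE). The adjusted p was 0.639 for each of Psmd1, Psmd4, Psmd6 and Psmd14. Psmd3 varied most between pools among the lid genes, from -0.59 in pool 11 to 0.38 in pool 12. For Psmd11 the 2 dimmer probes differed by -0.15 ± 0.18 and 1.29 ± 0.57 (SE), and the brightest by -0.11.

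Over the 17 genes of the regulatory particle the median was -0.17, -0.041 after quantile normalization, and -0.089 and -0.027 with arrays scaled to percentiles 75 and 95. Without each pool in turn it lay between -0.21 (without pool 1) and -0.11 (without pool 6).

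Assembly chaperones help to build the proteasome and are not part of the finished particle. Psmg1 to Psmg4 encode factors that assemble the alpha ring, and Psmd5, Psmd9 and Psmd10 encode chaperones of the base. All 7 had negative differences, against 60.4% of all genes, the smallest in size at -0.0067 for Psmg4 and -0.022 for Psmg3. Psmd9 read 3.33, 2.59, 2.95, 3.02 and 2.62 in infrarenal aorta, against 3.30, 3.002, 3.09, 3.17 and 3.21 in suprarenal aorta. The arrays of pools 6 and 12 were the low infrarenal ones, and the difference was -0.25 ± 0.10 (SE) (adjusted p = 0.639).

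Activator caps open the core without ATP, and 3 were measured. Psme1 and Psme2, which form the interferon-induced cap and are background partners of the immunoproteasome, differed by -0.034 ± 0.093 (SE) and -0.18 ± 0.12 (SE) (adjusted p = 0.927 and 0.672). On the deposited scaling their fitted differences did not share the positive sign of Psmb8 and Psmb9, although both were positive in pool 1, at 0.23 and 0.30. In other pools Psme1 was at 0.0014 in pool 8, 0.041 in pool 12, -0.082 in pool 11 and -0.35 in pool 6. Psmb8 and Psmb9 were positive in pools 1, 8 and 11 instead, and Psme2 only in pool 1. Psme3, which encodes the nuclear cap, read 2.91, 2.41, 2.81, 2.41 and 2.41 in infrarenal aorta, against 3.10, 2.94, 2.80, 2.88 and 2.46 in suprarenal aorta. It differed by -0.25 ± 0.10 (SE) (adjusted p = 0.639), with the groups overlapping.

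The rule also took in 4 genes that are not part of the common proteasome. Psma8 encodes the alpha subunit of the testis and read -0.30, -0.76, -0.76, -0.50 and -0.71 in infrarenal aorta, against -0.82, -0.86, -0.49, -0.69 and -0.99 in suprarenal aorta, below the array median on every array. Its difference was 0.17 ± 0.15 (SE) (adjusted p = 0.746), negative only in pool 8. Psmb11 encodes the catalytic subunit of the thymus and was the only member in the dimmest 30% of probes. It read -3.66, -2.06, -3.16, -5.17 and -2.56 in infrarenal aorta, against -2.49, -3.62, -3.50, -2.77 and -3.94 in suprarenal aorta, with the infrarenal array of pool 11 at the floor. Those values spread over more than 3 log2 units, and the difference was -0.055 ± 0.64 (SE) (adjusted p = 0.984).

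Psme3ip1 encodes a partner of the nuclear cap and Psmc3ip a meiotic recombination factor, and neither is a subunit. Psme3ip1 read -1.14, -1.75, -1.81, -1.76 and -2.29 in infrarenal aorta, against -1.07, -1.05, -1.42, -1.51 and -1.48 in suprarenal aorta. It had the lowest difference of all members, -0.44 ± 0.18 (SE), negative in 5 of 5 pools, on a dim probe (adjusted p = 0.639). Psmc3ip differed by -0.25 ± 0.11 (SE) (adjusted p = 0.639).

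Genes around the proteasome that the symbol rule does not cover were also looked at, in lists, and none passed the test. Of all genes, 60.4% had negative differences, which is the share to set beside the counts of these lists. Of 7 further subunits and docking or assembly factors, 6 had negative differences, with a median of -0.20. Usp14, a proteasome-bound deubiquitinase, read 3.85, 3.55, 3.78, 3.74 and 3.52 in infrarenal aorta, against 4.12, 3.87, 3.99, 4.04 and 3.95 in suprarenal aorta. It was negative in 5 of 5 pools, with a difference of -0.30 ± 0.072 (SE), and the docked thioredoxin-like Txnl1 differed by -0.20 ± 0.074 (SE) (adjusted p = 0.639 for both). Of 16 genes of ubiquitin conjugation and delivery, 14 were negative, with a median of -0.14. The conjugating enzyme gene Ube2d1 differed by -0.21 ± 0.068 (SE) and the shuttle factor gene Rad23b by -0.42 ± 0.18 (SE) (adjusted p = 0.639 for both).

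Of 11 transcription factor and regulator genes known to act on proteasome genes, 10 had negative differences, against 60.4% of all genes. Their median was -0.073. Nfe2l1, the factor that raises proteasome gene transcription when proteasome activity is short, read 2.23, 2.04, 1.83, 1.99 and 1.66 in infrarenal aorta, against 2.22, 2.14, 2.04, 2.27 and 2.06 in suprarenal aorta. It was lower in infrarenal aorta in 4 of 5 pools and about level in pool 1, and the difference was -0.20 ± 0.091 (SE) (adjusted p = 0.639). Stat3 differed by -0.14 ± 0.070 (SE) (adjusted p = 0.649). Of 8 MHC class I presentation genes, 6 were negative, with a median of -0.11. H2-K1, a class I heavy chain gene, had a dim probe that read -0.67, -1.12, -0.97, -0.99 and -0.88 in infrarenal aorta, against -1.43, -1.39, -1.19, -1.47 and -2.08 in suprarenal aorta. It was higher in infrarenal aorta in 5 of 5 pools, with a difference of 0.58 ± 0.19 (SE), while the bright H2-D1 probe differed by -0.072 ± 0.091 (SE), and Calr, a chaperone of class I assembly, by -0.19 ± 0.074 (SE) (adjusted p = 0.639 for H2-K1 and Calr and 0.819 for H2-D1). Of 10 E3 ligase genes 8 were negative (80.0%, against 60.4% of all genes), with a median of -0.12. Skp1, a part of some cullin ligases, differed by -0.21 ± 0.080 (SE), and the dim Skp2 by 1.03 ± 0.44 (SE) (adjusted p = 0.639 for both).

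Markers of other cells varied between pools, and their part in the proteasome differences was not tested. Of all genes, 60.4% were negative in the fit. Of 8 brown adipocyte markers 7 had a value on every array, with 6 of these negative in the fit, and their mean differed by 0.0011, -2.20, -0.67, -2.09 and 1.29 in pools 1, 6, 8, 11 and 12, where the constitutive core differed by 0.025, -0.37, -0.17, -0.20 and -0.063. Pool 6 was the lowest of the 5 in both, while pool 12 was positive for the brown adipocyte markers and negative for the core. The mean level of these 7 markers was between 3.46 and 5.83 on infrarenal arrays and between 3.45 and 6.05 on suprarenal arrays, and none was at the floor. The 8 skeletal muscle markers differed by -2.31, 2.34, 0.88, 3.35 and -2.80 in the same order of pools, with levels of 1.77 to 5.02 on infrarenal and 0.82 to 5.22 on suprarenal arrays. General adipocyte markers, 5 measured and all 5 negative in the fit, differed by -0.078, -1.26, -0.44, 0.15 and 0.40. Sympathetic neuron and chromaffin markers, 7 measured and all 7 negative, differed by -2.14, -0.28, 0.98, -1.05 and 1.14.

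Macrophage markers were measured for 8 of 10, with 7 of those negative in the fit, against 60.4% of all genes. Their mean differed by -0.036, -0.44, -0.37, -0.0053 and -0.59 in pools 1, 6, 8, 11 and 12. Its level was 3.68 to 3.89 on infrarenal and 3.88 to 4.33 on suprarenal arrays. T and B lymphocyte markers, 7 of 8 measured, differed by -0.11, 0.28, -0.60, -0.21 and 0.33, with levels of 0.12 to 0.60 on infrarenal and 0.26 to 0.72 on suprarenal arrays. The pan-leukocyte gene Ptprc differed by -0.20 ± 0.14 (SE) (adjusted p = 0.683). Smooth muscle markers differed by 0.076, 0.20, 0.15, 0.15 and -0.15, and endothelial markers by 0.057, -0.38, -0.0014, 0.0051 and -0.42, in the same order of pools.

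Scaling by 1 factor per array shifts the members and all other genes together. The members' median minus that of all genes was -0.12 on the deposited scaling and with arrays scaled to percentile 75 or 95, -0.039 after quantile normalization, and between -0.15 and -0.062 without single pools. Scaling to percentile 95 moved the median of all genes to 0.091, with 30.45% negative. The split of members was then 28 negative and 19 positive. Scaling to percentile 75 gave 39 and 8, with a median of -0.088 over members and 0.030 over all genes, of which 43.28% were negative. Quantile normalization gave 32 and 15, with 49.65% of all genes negative. No member passed the adjusted threshold under any of these settings, with a lowest adjusted p of 0.503 at percentile 95 and 0.391 without pool 12.

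**Figure D4:**
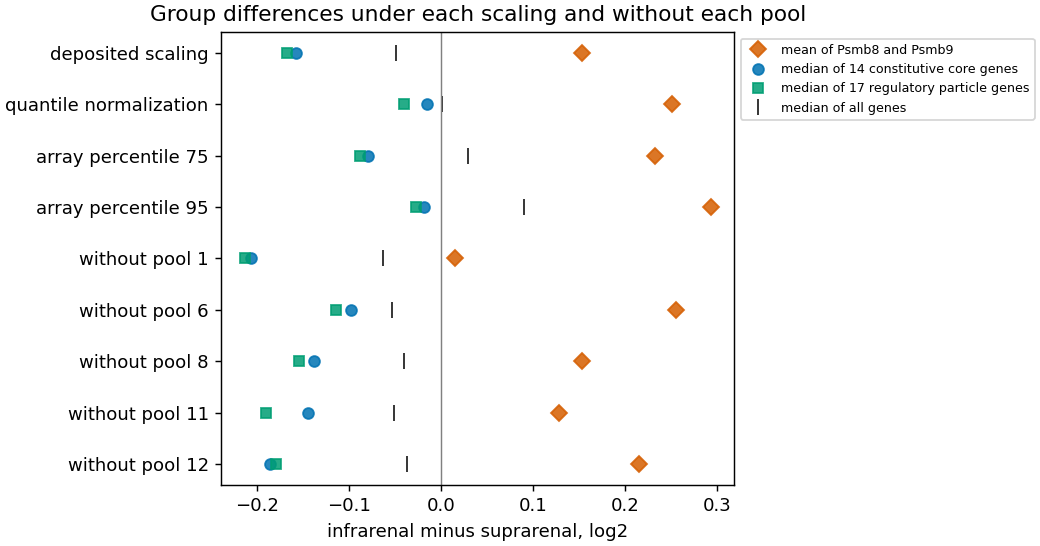
Infrarenal minus suprarenal log2 difference for the mean of Psmb8 and Psmb9, the median of 14 constitutive core genes, the median of 17 regulatory particle genes and the median of all genes, under 4 scalings and without each pool. The constitutive groups lie between -0.21 and -0.016 and stay below the median of all genes in each row. The mean of Psmb8 and Psmb9 lies between 0.13 and 0.29 except without pool 1, where it is 0.015.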

How the data were processed

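Gene expression was measured on 10 one-colour arrays, hybridised with biotin-labelled cRNA and stained with Cy5-streptavidin per the labels' protocols. The authors' deposited table holds intensities on a linear scale, with array medians of 1.0013 to 1.0032; how they were scaled and background-corrected is not stated in the labels or headers. Of 36227 probes, 36061 with at least 3 values per region were tested. Values under 0.0278 (percentile 1 of positive values, 5328 values) were raised to it before log2. The submitted platform annotation gave 1 symbol to 21615 probes, several to 681 and none to 13931; 21487 were updated by Entrez ID from RefSeq's GRCm38.p6 table.

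Infrarenal minus suprarenal differences were fitted with limma 3.58.1 in R 4.3.3 (lmFit, eBayes with a variance trend, the pool as a block), with Benjamini-Hochberg adjustment over all probes and a threshold of 0.05. The series' design text takes the ratio of both segments within each pool of 2 mice, and arrays were matched to a pool by the number in their titles; the data do not show this pairing on their own, since paired deviations correlated at only -0.093 to 0.045 over the 5 pools. The number of arrays, 5 per region, limits the precision. Inducible and constitutive partners were compared by an exact sign-flip permutation test over pools; the Psmb10 to Psmb7 pair was planned but not run, since the Psmb10 probe carries 2 symbols. Members and gene lists were chosen with earlier results of these data known. Values on every array are given for the catalytic genes, the member of smallest p in each role, members with an unadjusted p under 0.05, the extremes of the family, and, among other genes, for some of the 2 of smallest p in each list; Tap1, Tap2, Irf1, H2-D1 and the second probes were named after their values were seen. Tried alternatives were no replicate block, quantile normalization, an offset (0.2701, percentile 25) used instead of a floor, a fit without the 30% dimmest probes, averaged probes, no variance trend, array weights, each pool left out and, chosen after seeing the data, scaling to percentile 75 or 95.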

Additional observations from a re-analysis of the deposited data

Results flagged for a closer look

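In 5 of 54 sets of 5 arrays, 1 array stood further from the others than Dixon's 95% limit allows, where chance gives about 2.7. The sets share arrays and genes, so the flags are not separate events: Psmb9 is also part of the flagged mean of Psmb8 and Psmb9. All 5 are suprarenal arrays of pool 8 or 12. Psma1 read 4.73 on the suprarenal array of pool 12, against 5.09 to 5.22 on the other suprarenal arrays, and the mean level of the 11 base and lid genes read 5.21 there, against 5.35 to 5.39. On the suprarenal array of pool 8, Psmb4 read 7.01 (the others 6.72 to 6.79), Psmb9 read 2.79 (2.56 to 2.61), and the mean of Psmb8 and Psmb9 read 3.84 (3.54 to 3.60).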

How the results depend on the processing

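No proteasome gene passed the adjusted threshold under any alternative run. The count of 11 with a negative difference at an unadjusted p under 0.05 (5.89% of all genes) was 8 with no replicate block (5.73% of all genes), 2 after quantile normalization (2.85%), 2 with no variance trend (2.98%), 1 with arrays scaled to percentile 75 (1.95%), 1 with percentile 95 (0.834%), and 1 to 15 with single pools left out (2.62% to 8.97%). The count of positive ones, 0 (2.17% of all genes), was 1 after quantile normalization (2.83%) and 1 at percentile 95 (7.64%). The median of -0.17 was -0.037 after quantile normalization, -0.088 at percentile 75, -0.027 at percentile 95, and -0.21 to -0.11 with single pools left out. Of the 19 proteasome genes described on every array, 4 had the opposite sign in some setting. Psmb7 was 0.0031 after quantile normalization and 0.020 at percentile 95, where Psmb5 was 0.0011. Psmb9 was -0.0084 to 0.28 with single pools left out. Psmb11 was 0.029 with an offset, 0.024 at percentile 75, 0.085 at percentile 95, and -0.46 to 0.53 with single pools left out. The cause was not tested. Percentile scaling was chosen after seeing the data. Removing the replicate block on pools could turn no direction among those 19 genes. Each pool had 1 array per region, so their differences stay the same without the block.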
